A study of Homo sapiens with 6 samples.

Results

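The HLA class I and peptide loading genes examined here were HLA-B, HLA-C, HLA-E, HLA-F, B2M, TAP1, TAP2, TAPBP and NLRC5, which are 9 of the 58051 genes in the deposited count table. They were taken by symbol, each row being matched by its Ensembl identifier to the GENCODE 29 annotation, so that no measured value entered the rule. All 9 had enough counts to be among the 14773 genes tested. OE33, an established epithelial cell line from a human oesophageal adenocarcinoma, was exposed to 15 µM APX2009 for 24 h in 3 libraries and left untreated in 3 others, and no vehicle is named for the untreated cells. The design text calls the 3 samples of each group independent biological replicates of this single line, and no genetic change is labelled in either group. APX2009 is named there as an inhibitor of the redox function of APE1, a DNA repair endonuclease that also acts on transcription factors, and the stated question is which transcripts that function controls. Polyadenylated RNA was sequenced and reads were counted per gene.

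Class I molecules display peptides from inside the cell at its surface, where CD8 T cells and natural killer cells read them. A heavy chain, from HLA-B, HLA-C, HLA-E or HLA-F here, pairs with the invariant light chain β2-microglobulin (B2M) and with a peptide that the proteasome has cut and the TAP1-TAP2 transporter has carried into the endoplasmic reticulum, where tapasin (TAPBP) bridges heavy chain and transporter. NLRC5 is a transactivator of class I genes. It acts through the RFX, CREB/ATF and NF-Y proteins bound to the SXY module of heavy chain and B2M promoters. Sites for interferon regulatory factors (the interferon-stimulated response element, ISRE) and NF-kappaB lie beside that module.

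The promoters are shown so that the letters before the starts of these genes can be set side by side. RefSeq windows of GRCh38.p14 were found for 7 of the 9 members, but not for HLA-E and NLRC5. Of these windows, 5 are printed as the 250 bases before the start, 5′ to 3′ on the strand of the gene. HLA-B (minus strand) spans chr6:31357180-31357429, HLA-C (minus) chr6:31272093-31272342, HLA-F (plus) chr6:29723184-29723433, B2M (plus) chr15:44711267-44711516 and TAP1 (minus) chr6:32853705-32853954. The longest GENCODE 29 spans of HLA-F and TAP1 begin upstream of these windows. Capitals mark every match, on either strand, to the ISRE core GAAANNGAA or GAANNGAAA, the NF-kappaB consensus, the Y box core ATTGG bound by NF-Y and the CRE core TGACG bound by CREB/ATF.
HLA-B: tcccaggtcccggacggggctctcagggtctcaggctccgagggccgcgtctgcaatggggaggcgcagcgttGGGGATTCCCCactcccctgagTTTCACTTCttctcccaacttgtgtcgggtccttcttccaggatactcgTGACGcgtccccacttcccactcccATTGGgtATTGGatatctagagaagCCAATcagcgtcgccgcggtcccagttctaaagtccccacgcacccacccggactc
HLA-C: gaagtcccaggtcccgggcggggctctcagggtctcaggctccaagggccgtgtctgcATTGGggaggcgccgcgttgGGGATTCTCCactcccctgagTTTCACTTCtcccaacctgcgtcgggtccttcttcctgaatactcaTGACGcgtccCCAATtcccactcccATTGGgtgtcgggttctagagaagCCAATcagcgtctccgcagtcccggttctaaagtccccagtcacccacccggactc
HLA-F: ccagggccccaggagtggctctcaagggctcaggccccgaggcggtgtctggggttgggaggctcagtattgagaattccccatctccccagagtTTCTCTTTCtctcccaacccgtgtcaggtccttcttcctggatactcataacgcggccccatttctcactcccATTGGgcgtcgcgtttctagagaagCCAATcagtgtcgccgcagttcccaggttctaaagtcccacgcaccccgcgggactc
B2M: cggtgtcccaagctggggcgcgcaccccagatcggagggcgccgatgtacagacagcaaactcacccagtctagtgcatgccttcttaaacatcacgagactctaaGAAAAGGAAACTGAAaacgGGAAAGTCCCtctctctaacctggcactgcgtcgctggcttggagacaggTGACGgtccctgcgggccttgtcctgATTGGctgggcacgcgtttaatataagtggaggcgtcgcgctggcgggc
TAP1: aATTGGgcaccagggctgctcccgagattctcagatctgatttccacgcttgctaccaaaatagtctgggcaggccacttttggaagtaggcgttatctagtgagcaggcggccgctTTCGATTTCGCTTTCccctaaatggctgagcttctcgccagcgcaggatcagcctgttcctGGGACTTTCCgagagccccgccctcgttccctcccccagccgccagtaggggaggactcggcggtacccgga

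The windows of HLA-B and HLA-C were 91.9% identical over their aligned bases, and HLA-F was 81.8% identical to HLA-B and 82.7% to HLA-C. B2M was 41.6% to 45.8% identical to these 3. The ISRE core GAAANNGAA was found in 5 of 8 windows of the 7 members (TAP1 has 2 windows), those of HLA-F, B2M, TAP1, TAP2 and TAPBP, against 6.88% of 35116 RefSeq windows of this length. HLA-B, HLA-C and TAP2 held the other spacing, GAANNGAAA, a search added after the windows were seen, which 6.56% of all windows held. The NF-kappaB consensus was found in 5 of the 8 windows, those of HLA-B, HLA-C, B2M, TAP1 and TAPBP, against 9.96% of all windows. ATTGG was found in 5 windows and TGACG in 4, against 32.0% and 21.2% of all windows. The motifs were chosen as sites that class I promoters are known to hold, and the heavy chain windows resemble each other. The shares of all windows are therefore given as a description only. The matches of the ISRE core and of NF-kappaB overlap other matches in B2M, TAP1, TAP2, TAPBP and HLA-B. A match is a description of letters, and no binding was measured. The window of B2M held all 4 kinds of match. Whether any match bears on the changes in level was not tested.

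**Figure D1:**
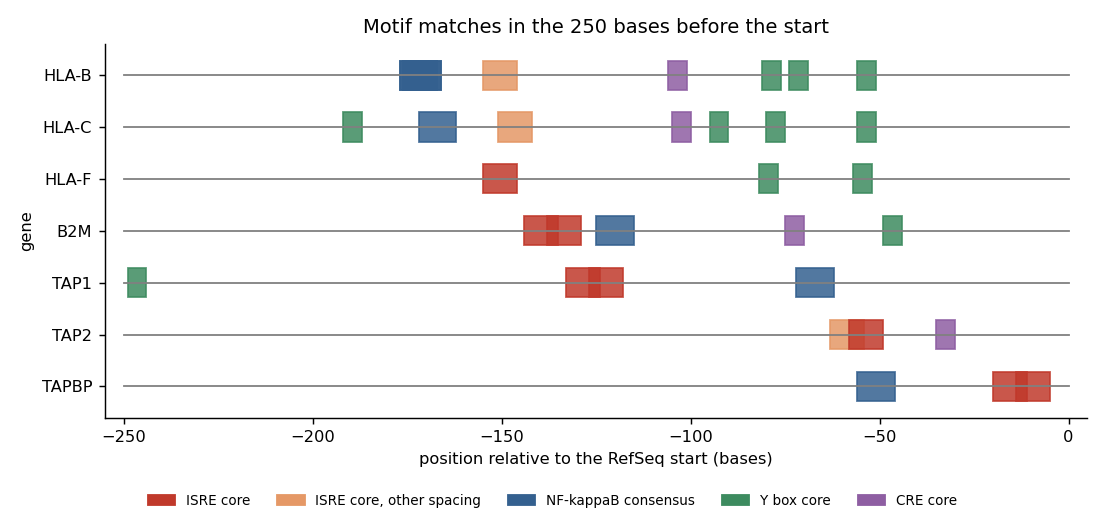
Positions of the motif matches in the 250 bases before the RefSeq start of 7 members; the x axis is the distance from the start in bases, each row is a gene, and each coloured box is a match on either strand. HLA-B and HLA-C hold NF-kappaB, ISRE and CRE matches in the same order, and B2M holds all 4 kinds as well.

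The 6 libraries held 21158750 to 26111656 counts in genes, and p-values measure only the spread between these samples. Replicate 1 of APX2009 stood apart: at least 1 count was found for 25015 genes in it, against 21845 to 22446 in the other 5 libraries, and ERCC spike-in RNA took 0.315% of its counts, against 0.480% to 0.752%. Among the genes of the lists described here, HLA-G and HLA-L lost their calls without it. The epithelial markers CDH1, EPCAM, KRT8, KRT18, KRT19, CLDN4 and CLDN7 summed to 14605 to 18217 CPM (counts scaled to the library size) after APX2009. In untreated cells they summed to 26025 to 26745 CPM. Of these 7 markers, 4 were lower (KRT8, KRT18, KRT19 and CDH1), or 57.1%, against 17.4% of all tested genes. EPCAM was at 446.3 CPM after APX2009 and 447.1 CPM in untreated cells. Of 10 leukocyte markers, CD3E and NKG7 were at 0 in all 6 libraries and none passed 4.26 CPM in any, with sums of 7.14 to 8.13 CPM after APX2009 and 6.81 to 7.07 CPM in untreated cells. CD68, a macrophage marker, was the only one called of the 3 that were tested, at 3.17 ± 0.64 against 1.39 ± 0.44 CPM (edgeR adjusted p = 0.0051). The part of these differences in the class I results was not tested.

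After APX2009, transcripts of the class I heavy chains, of both transporter subunits and of tapasin were lower by 1.17-fold to 1.74-fold, while B2M and NLRC5 were not called. By edgeR's quasi-likelihood test at an adjusted p under 0.05, 7 of the 9 members were lower and 0 were higher (0 also at an unadjusted p under 0.05, and 0 by DESeq2 and by limma voom). Among all tested genes, 17.4% were lower and 17.2% were higher. The median log2 change of the members was -0.42, against 0.02 over all 14773 tested genes. The groups did not overlap, with APX2009 below untreated, for 8 of the 9 members, and for 25.0% of tested genes. In libraries of whole cultures, fewer cells carrying a transcript and less of it per cell cannot be told apart. Without APX2009 replicate 1 the same count of 7 members was lower. When libraries were scaled by their ERCC totals, 0 of 9 were called, with log2 changes of -0.47 for HLA-B and -0.71 for HLA-F, and 7 and 129 genes of the whole table were lower and higher.

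**Figure D2:**
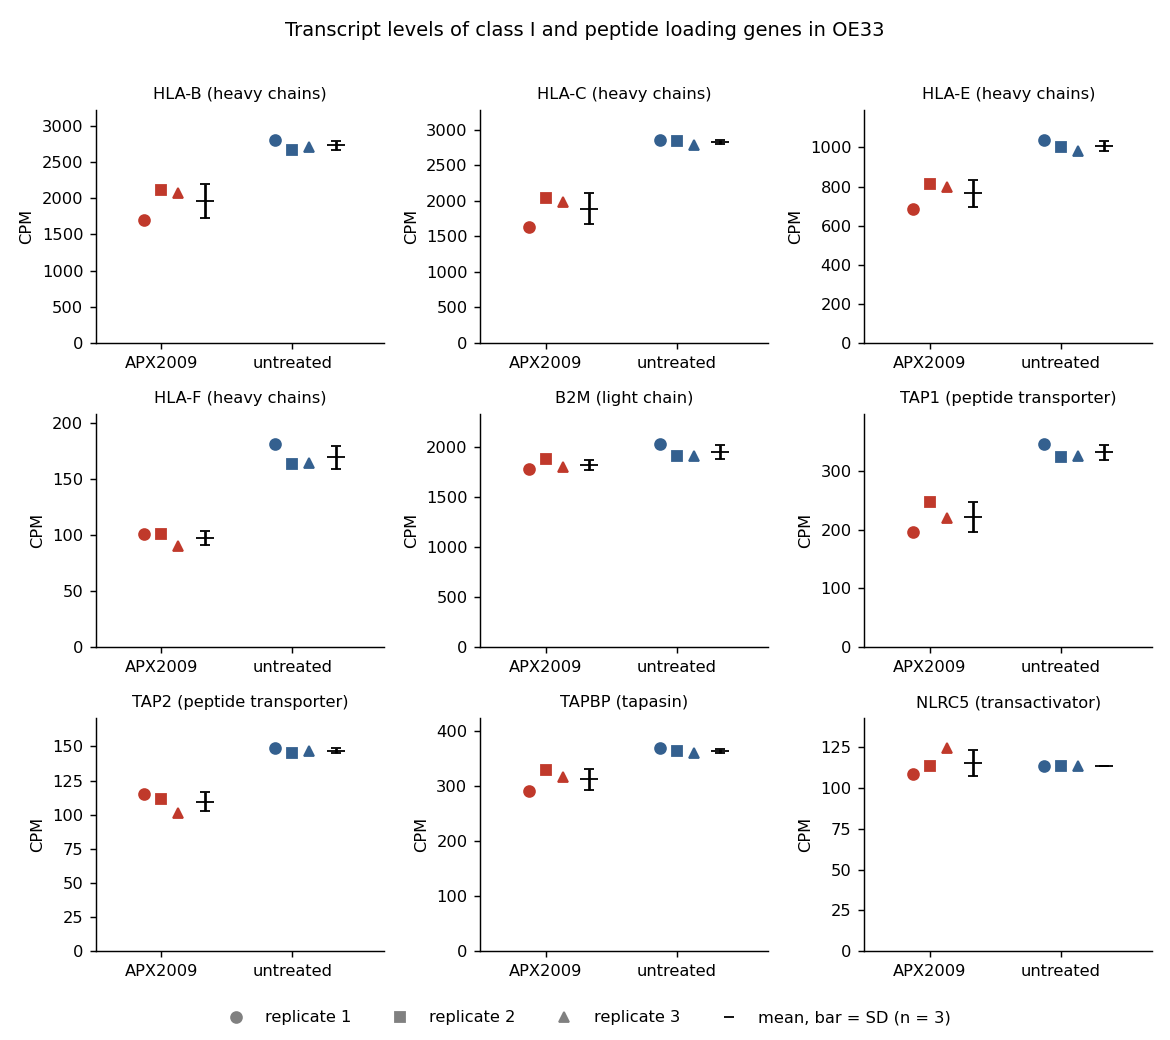
Levels of the 9 members in CPM (y axis, from 0) in each library, with the 3 APX2009 libraries in red on the left and the 3 untreated libraries in blue on the right of each panel; bars are mean ± SD (n = 3) and the symbol is the replicate number. For 8 members every APX2009 library lies below every untreated one, by a wide gap for HLA-F and a narrow one for B2M, and for NLRC5 the groups overlap.

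HLA-B (ENSG00000234745, chr6:31269491-31357188, minus strand), a classical heavy chain, had 1697, 2119 and 2067 CPM in APX2009 libraries 1, 2 and 3, against 2803, 2669 and 2713 CPM in untreated cells. All 3 APX2009 values lie below all untreated ones, and replicate 1 of APX2009 is the lowest. The means were 1961 ± 230.3 and 2728 ± 68.5 CPM (SD, n = 3 each), 1.39-fold lower (log2 change -0.48 ± 0.09, SE; adjusted p = 0.0023 by edgeR). Without APX2009 replicate 1 the log2 change was -0.38.

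HLA-C (ENSG00000204525, chr6:31268749-31272130, minus strand), the classical heavy chain that killer-cell immunoglobulin-like receptors read most widely, had 1637, 2035 and 1985 CPM after APX2009, against 2853, 2835 and 2788 CPM in untreated cells. The untreated libraries lie close together and the APX2009 libraries well below them, replicate 1 again the lowest. The log2 change was -0.58 ± 0.09 (edgeR adjusted p = 0.00063), at 66.7% of the untreated level, and -0.49 without APX2009 replicate 1. HLA-B and HLA-C share 35 exon bases in GENCODE 29, and the annotated span of HLA-B runs over HLA-C on the same strand.

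HLA-E (ENSG00000204592, chr6:30489467-30494205, plus strand), the non-classical heavy chain that presents leader peptides of other class I chains to NKG2A, had 683.5, 811.6 and 798.9 CPM after APX2009, against 1038, 1002 and 983.3 CPM in untreated cells. Its groups do not overlap either. The log2 change was -0.40 ± 0.08 (edgeR adjusted p = 0.0037), 1.32-fold lower.

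HLA-F (ENSG00000204642, chr6:29722775-29738528, plus strand), a non-classical heavy chain that can reach the surface as an open conformer, had 101.0, 100.7 and 89.9 CPM after APX2009, against 180.8, 163.0 and 163.9 CPM in untreated cells. This is the member with the largest fall, and here replicate 3 of APX2009, not replicate 1, is the lowest. The means were 97.2 ± 6.34 and 169.2 ± 10.0 CPM, 1.74-fold lower (log2 change -0.80 ± 0.07, adjusted p = 3.0e-05 by edgeR). Of all tested genes, 3.61% had a lower log2 change than HLA-F, against 7.32% for HLA-C, 10.6% for HLA-B and 14.1% for HLA-E. HLA-F was also the only member called against a change of at least 1.5-fold (edgeR adjusted p = 0.041).

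The 4 heavy chains summed to 4118, 5067 and 4940 CPM after APX2009, against 6875, 6668 and 6648 CPM in untreated cells. Their share of all gene counts was 0.421% to 0.507% after APX2009 and 0.661% to 0.685% in untreated cells. Tested as a single row, so that reads moved between them by the counting do not matter, the sum was 1.43-fold lower (log2 change -0.52 ± 0.08, edgeR adjusted p = 0.0010). Without APX2009 replicate 1 its log2 change was -0.43. Reads that map to several of these related genes, and alleles of OE33 that differ from the reference, can alter each gene's count, and their part was not tested. In the GENCODE 29 transcripts, 0% of the 100-base windows of HLA-B and HLA-F, 0.230% of those of HLA-C and 0.5995% of those of HLA-E also occur in another gene. Only exact identity within the reference was counted, so these shares cannot show that reads were assigned to the right gene.

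B2M (ENSG00000166710, chr15:44711487-44718877, plus strand), the light chain of every class I molecule, had 1785, 1884 and 1805 CPM after APX2009, against 2030.1, 1909 and 1917 CPM in untreated cells. The groups do not overlap, but by a narrow gap between APX2009 replicate 2 and untreated replicate 2. The means were 1825 ± 52.5 and 1952 ± 67.7 CPM, and the log2 change of -0.10 ± 0.07 was not called (edgeR adjusted p = 0.28).

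TAP1 (ENSG00000168394, chr6:32845209-32853978, minus strand), a subunit of the peptide transporter, had 195.9, 246.7 and 220.7 CPM after APX2009, against 345.5, 323.4 and 325.7 CPM in untreated cells. The groups are well separated, and replicate 1 of APX2009 is the lowest. The log2 change was -0.58 ± 0.09 (edgeR adjusted p = 0.00061), likewise at 66.7% of the untreated level. TAP1 shares 456 exon bases with PSMB8-AS1 on the opposite strand, which had 229 to 275 counts after APX2009 and 211 to 272 in untreated cells.

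TAP2 (ENSG00000204267, chr6:32821833-32838780, minus strand), the partner subunit, had 115.4, 111.9 and 101.5 CPM after APX2009, against 148.6, 144.9 and 147.0 CPM in untreated cells. The groups do not overlap, and replicate 3 is the lowest of the APX2009 libraries. The log2 change was -0.42 ± 0.07 (edgeR adjusted p = 0.00088), 1.34-fold lower. It shares 32.3% of its exon bases with the readthrough gene AL669918.1, which had 11, 15 and 17 counts after APX2009 and 9, 16 and 8 counts in untreated cells.

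TAPBP (ENSG00000231925, chr6:33299694-33314387, minus strand), which encodes tapasin, had 291.4, 329.7 and 317.1 CPM after APX2009, against 369.0, 363.7 and 361.4 CPM in untreated cells. The groups do not overlap, but the gap is small beside those of the other lower members. The log2 change of -0.22 ± 0.07 was called (edgeR adjusted p = 0.030), 1.17-fold lower. The call was lost without untreated replicate 1, 2 or 3, at adjusted p of 0.078, 0.095 and 0.096, with log2 changes of -0.21, -0.22 and -0.23.

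NLRC5 (ENSG00000140853, chr16:56989485-57083531, plus strand), the transactivator, had 108.4, 113.5 and 124.2 CPM after APX2009, against 113.5, 113.5 and 113.6 CPM in untreated cells. The untreated values are almost the same and fall inside the APX2009 range. Its log2 change was 0.02 ± 0.07 (edgeR adjusted p = 0.82), and -0.03 without APX2009 replicate 3.

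Levels of different genes were ordered per kilobase of the longest principal transcript, and this order depends on the length chosen. Reads that map to several genes and alleles that differ from the reference can also alter it, and their part was not tested. After APX2009 the order of levels was HLA-B (1268 ± 148.9 CPM per kb), HLA-C (1228 ± 141.3), B2M (1070 ± 30.8), HLA-E (294.0 ± 27.1), TAPBP (165.6 ± 10.3), TAP1 (74.7 ± 8.59), HLA-F (59.4 ± 3.88), TAP2 (43.9 ± 2.89) and NLRC5 (16.9 ± 1.18). In untreated cells HLA-C (1839 ± 21.7 CPM per kb) stood above HLA-B (1764 ± 44.3), with B2M (1145 ± 39.7), HLA-E (387.4 ± 10.7), TAPBP (193.2 ± 2.09), TAP1 (112.0 ± 4.11), HLA-F (103.5 ± 6.14), TAP2 (58.8 ± 0.740) and NLRC5 (16.6 ± 0.00686) after them. On this length B2M lies below HLA-B and HLA-C within every library of both groups. The ranges over the APX2009 libraries still overlap, B2M at 1047 to 1105 CPM per kb, HLA-B at 1097 to 1370 and HLA-C at 1066 to 1325. In untreated cells the range of B2M lies below both. The overlap depends on the length chosen. With the joined length of all exons, HLA-C comes first in both groups. There B2M, at 293.6 to 309.9 CPM per kb after APX2009, lies below the ranges of HLA-B (556.1 to 694.6) and HLA-C (652.9 to 811.8). On that length HLA-E stood below B2M in each APX2009 library (257.0 against 300.2 CPM per kb on average). It stood above B2M in each untreated library (338.7 against 321.1 on average), though the ranges, 330.5 to 348.9 and 314.1 to 333.9, overlap.

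The members differed among themselves in how the 3 APX2009 libraries spread. The log2 difference from the untreated mean in APX2009 libraries 1, 2 and 3 was -0.68, -0.36 and -0.40 for HLA-B. It was -0.79, -0.47 and -0.51 for HLA-C, and -0.76, -0.43 and -0.59 for TAP1. HLA-F, at -0.74, -0.75 and -0.91, and TAP2, at -0.35, -0.39 and -0.53, instead were lowest in replicate 3. Of the 9 members, 7 were lowest in APX2009 replicate 1 and 2 in replicate 3. The coefficient of variation was larger after APX2009 than in untreated cells for 8 of the 9, by 11.7% against 2.51% for HLA-B and 6.97% against 0.0413% for NLRC5, and B2M alone went the other way (2.88% against 3.47%). The share of all tested genes with either pattern was not computed, so these counts cannot be read as particular to the members.

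**Figure D3:**
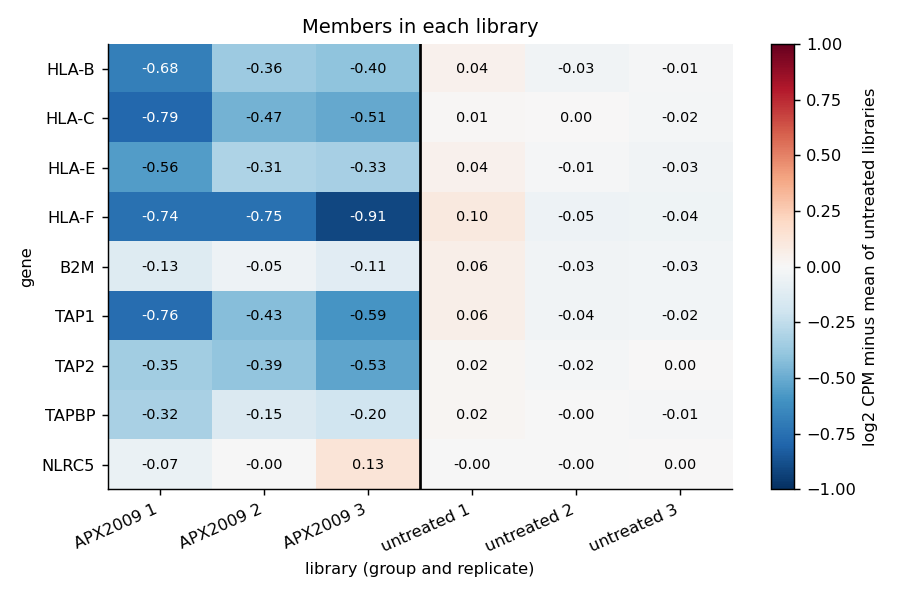
Log2 CPM of each member (rows) in each library (columns, APX2009 left of untreated) minus its mean over the untreated libraries, as colour and number. Blue fills the APX2009 columns for the heavy chains and the transporter, faintly so for TAPBP and B2M, and the NLRC5 row stays near 0.

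Ratios of counts within a library need no scaling, and 15 were computed after the members' values were seen. With 3 libraries against 3 the smallest exact two-sided permutation p is 0.1, so that none can pass 0.05, and 13 of the 15 reached it (adjusted p 0.115 over the 15). The 4 heavy chains had 2.31, 2.69 and 2.74 counts per B2M count after APX2009, against 3.39, 3.49 and 3.47 in untreated cells, 1.34-fold lower. HLA-B had 15.6, 18.7 and 16.6 counts per NLRC5 count after APX2009, against 24.7, 23.5 and 23.9 in untreated cells. Both ratios separate the groups, but they set members called lower over members not called, so this adds no support to the calls. The share of other gene pairs whose ratio separates the groups was not computed.

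Ratios between lower members also left the groups apart. HLA-F had 0.148, 0.124 and 0.112 counts per HLA-E count after APX2009, against 0.174, 0.163 and 0.167 in untreated cells. TAP1 had 0.672, 0.748 and 0.696 counts per TAPBP count after APX2009, against 0.936, 0.889 and 0.901 in untreated cells. HLA-B had 1.04 counts per HLA-C count in each APX2009 library, against 0.983, 0.941 and 0.973 in untreated cells, a small shift that also leaves the groups apart. TAP1 had 1.697, 2.21 and 2.17 counts per TAP2 count after APX2009 and 2.33, 2.23 and 2.22 in untreated cells, where only APX2009 replicate 1 lies far from the rest.

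**Figure D4:**
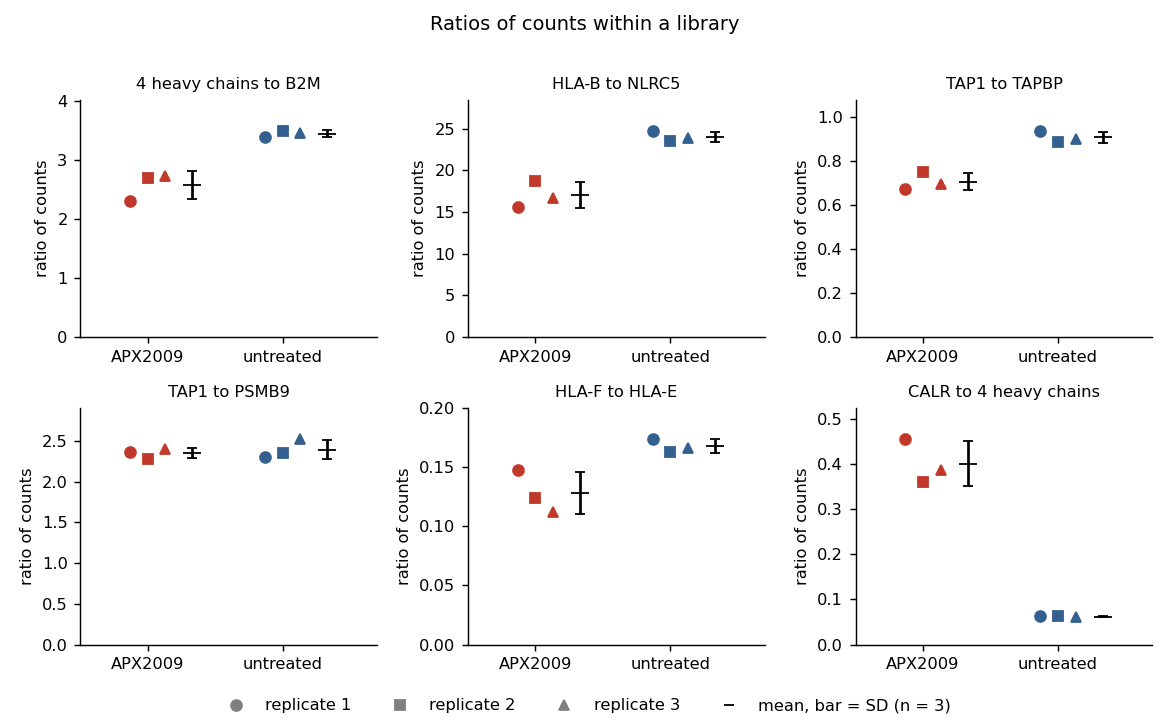
Ratios of counts of 2 genes, or of the 4 heavy chains and 1 gene, within each library (y axis, from 0), APX2009 in red left of untreated in blue, with mean ± SD (n = 3). The heavy chains per B2M, HLA-B per NLRC5, TAP1 per TAPBP and HLA-F per HLA-E are lower after APX2009, CALR per heavy chain count is higher, and TAP1 per PSMB9 overlaps between the groups.

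The immunoproteasome, the inducible form of the proteasome that favours peptides fit for class I, went partly with the transporter. Of 5 tested genes of the immunoproteasome and its PA28 cap, 2 were lower (40%, against 17.4% of all tested genes) and 3 were not called. None were higher (0 at an unadjusted p under 0.05), and the median log2 change was -0.27. PSMB9, whose start lies beside that of TAP1 on the opposite strand, had 83.0, 108.1 and 91.8 CPM after APX2009, against 150.1, 137.4 and 128.8 CPM in untreated cells (log2 change -0.56 ± 0.10, edgeR adjusted p = 0.0017). There were 2.36, 2.28 and 2.40 TAP1 counts per PSMB9 count after APX2009 and 2.30, 2.35 and 2.53 in untreated cells, which overlap (exact permutation p = 0.7).

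PSMB8, the neighbouring catalytic subunit, was 1.21-fold lower (log2 change -0.27 ± 0.08, edgeR adjusted p = 0.018), a call lost without untreated replicate 1 or 3 (adjusted p = 0.055 and 0.062). PSMB10, the remaining inducible catalytic subunit, had 26.0, 34.3 and 37.8 CPM after APX2009, against 40.7, 39.1 and 41.8 CPM in untreated cells, and was not called (log2 change -0.31 ± 0.12, edgeR adjusted p = 0.065). It was called by DESeq2 (adjusted p = 0.046), with no filter (0.0014), with the replicate block (0.016) and without APX2009 replicate 3 (0.019), and without APX2009 replicate 1 its log2 change was -0.17. The PA28 subunits PSME1 and PSME2 had log2 changes of 0.03 and -0.11, neither called. Of the constitutive catalytic subunits that these replace, PSMB6 was lower (log2 change -0.37), PSMB7 was higher (0.36) and PSMB5 was not called (-0.01).

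Other genes listed for class I loading and peptide trimming mostly went the other way, although tapasin, counted among the members, was lower. The list includes general chaperones of the endoplasmic reticulum such as HSPA5. Of 14 tested loading partners and peptide trimming genes, 10 were higher (71.4%, against 17.2% of all tested genes) and 4 were not called. None were lower (0 at an unadjusted p under 0.05), and the median log2 change was 0.54. CALR, which encodes the chaperone calreticulin that holds the heavy chain in the loading complex, had 1875, 1822 and 1908 CPM after APX2009, against 427.1, 415.2 and 405.2 CPM in untreated cells. It was 4.49-fold higher (log2 change 2.17 ± 0.07, edgeR adjusted p = 2.1e-08), with no overlap between the groups.

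PDIA3, the thiol oxidoreductase bound to tapasin, had 922.2, 901.7 and 915.5 CPM after APX2009, against 376.5, 374.0 and 375.3 CPM in untreated cells (log2 change 1.28 ± 0.06). HSPA5, the general chaperone BiP, was 3.88-fold higher (log2 change 1.96 ± 0.06), and the lectin chaperone CANX was 1.60-fold higher (log2 change 0.68 ± 0.06). ERAP1 and ERAP2, the aminopeptidases that trim peptides in the endoplasmic reticulum, had log2 changes of 0.47 and 0.19, both called. UGGT1, which re-glucosylates unfinished glycoproteins so that calreticulin binds them again, had a log2 change of 0.77, also called. TAPBPL, the tapasin-like peptide editor, was not called (log2 change 0.14, edgeR adjusted p = 0.42).

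Calreticulin transcripts therefore stood in another proportion to their class I partners. CALR had 0.455, 0.3595 and 0.386 counts per heavy chain count after APX2009, against 0.0621, 0.0623 and 0.0610 in untreated cells, 6.45-fold higher. PDIA3 had 3.16, 2.73 and 2.89 counts per TAPBP count after APX2009, against 1.02, 1.03 and 1.04 in untreated cells. Both ratios leave a wide gap between the groups, and both set a gene called higher over genes called lower. Without APX2009 replicate 1, 12 of the 14 genes were higher in place of 10.

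**Figure D5:**
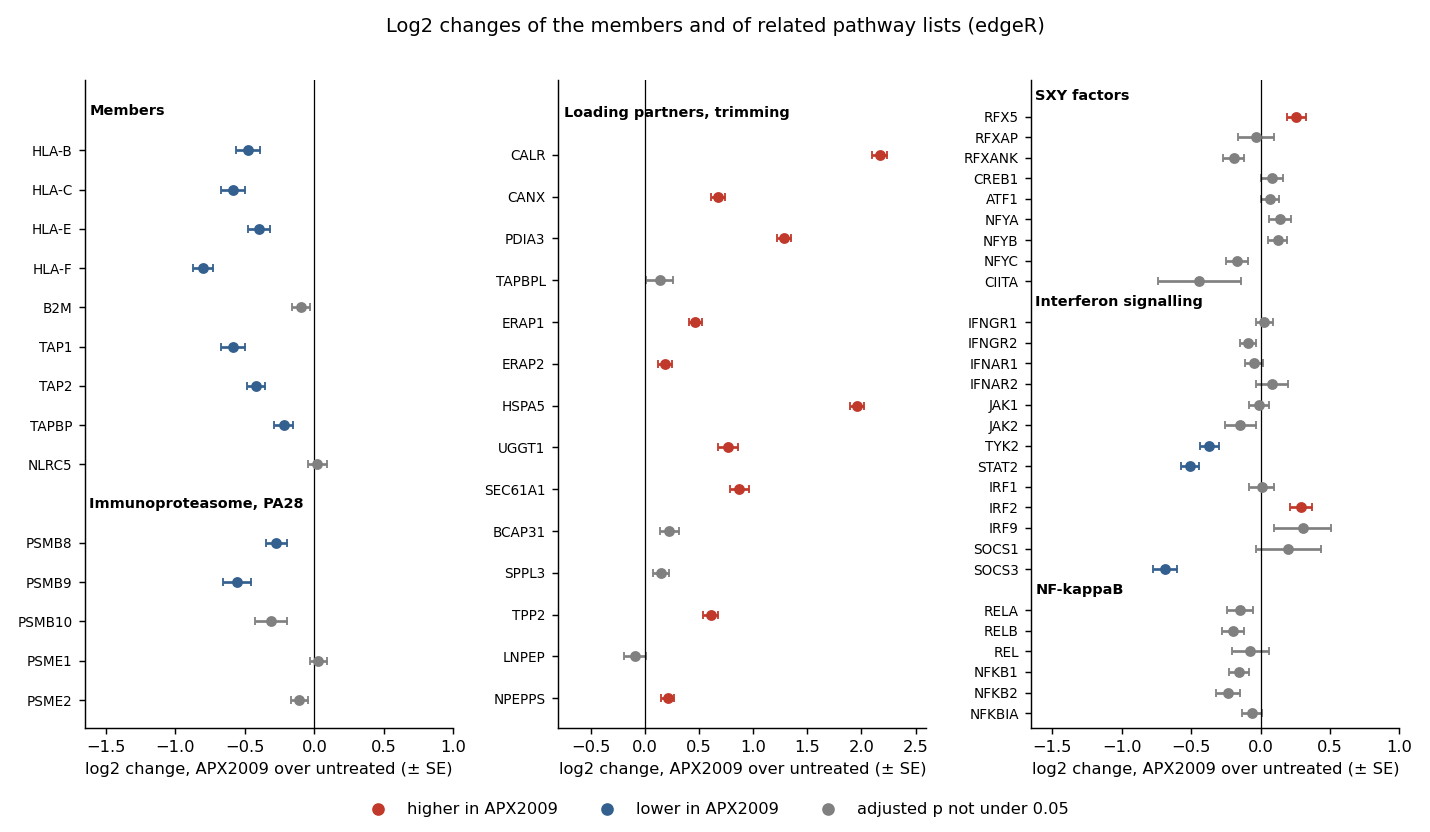
Log2 change, APX2009 over untreated, with its SE for the members and for 5 lists of related genes (x axis; each row is a gene); red is higher, blue is lower and grey is an edgeR adjusted p not under 0.05. Members lie mostly left of 0, loading partners mostly right of 0 with CALR and HSPA5 farthest, and all SXY and NF-kappaB factors but RFX5 are grey, CIITA with the widest error.

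Transcripts of the factors bound to the SXY module, and of CIITA listed with them, were mostly not called. Of 9 tested SXY genes, 0 were lower (1 at an unadjusted p under 0.05), 1 was higher (11.1%) and 8 were not called. Over all tested genes, 17.4% were lower and 17.2% higher. The median log2 change of the list was 0.07. RFX5, a subunit of the RFX complex, had 34.2, 34.1 and 36.6 CPM after APX2009, against 30.6, 28.4 and 28.7 CPM in untreated cells (log2 change 0.26 ± 0.07, edgeR adjusted p = 0.017). That call was lost without untreated replicate 2 or 3 (adjusted p = 0.068 and 0.076). RFXANK, NFYC and NFYA had log2 changes of -0.19, -0.17 and 0.14, none called, and CIITA, the class II transactivator, had -0.44 ± 0.30 at 1.45 CPM after APX2009 and 1.99 CPM in untreated cells, also not called.

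Of 13 tested interferon receptor, JAK, STAT, IRF and SOCS genes, 3 were lower (23.1%), 1 was higher (7.69%) and 9 were not called. The shares of all tested genes were 17.4% lower and 17.2% higher. The median log2 change of the list was -0.01. STAT2, a factor of the type I interferon signal, had 142.6, 136.1 and 130.4 CPM after APX2009, against 201.2, 188.4 and 191.0 CPM in untreated cells (log2 change -0.50 ± 0.06, edgeR adjusted p = 0.00025). Its groups lie far apart. The receptor kinase TYK2 was 1.29-fold lower (log2 change -0.37 ± 0.07) and the feedback inhibitor SOCS3 was 1.61-fold lower (-0.69 ± 0.09). The gene that was higher was IRF2, a factor of the same family as IRF1 (0.29 ± 0.08, edgeR adjusted p = 0.016), a call lost without APX2009 replicate 2 or untreated replicate 1 or 3 (adjusted p = 0.057, 0.055 and 0.073).

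IRF1, which binds ISRE sites of class I promoters, had 118.0, 152.0 and 138.2 CPM after APX2009, against 137.2, 130.7 and 137.7 CPM in untreated cells, and was not called (log2 change 0.01). Its APX2009 values lie on both sides of the untreated ones. The receptors IFNGR1 and IFNAR1 had log2 changes of 0.03 and -0.05, neither called.

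Of 6 NF-kappaB genes, 0 were called by edgeR in either direction, with a median log2 change of -0.15. Over all tested genes, 17.4% were lower and 17.2% higher. At an unadjusted p under 0.05, 2 were lower and 0 were higher, and DESeq2 called 1 lower. The gene with the smallest p was NFKB2, with 175.6, 204.1 and 223.2 CPM after APX2009, against 229.9, 240.1 and 238.2 CPM in untreated cells (log2 change -0.23 ± 0.09, edgeR adjusted p = 0.061). Its groups do not overlap, and without APX2009 replicate 1 it was called (log2 change -0.15, adjusted p = 0.048). In edgeR it was also called lower with the replicate block (adjusted p = 0.028), with total counts (0.049), upper-quartile factors (0.045) or no filter (0.024), and without APX2009 replicate 3 (0.017).

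Of 10 genes of class I turnover and silencing, 2 were lower (20%), 1 was higher (10%) and 7 were not called. Over all tested genes these shares were 17.4% and 17.2%. The median log2 change of the list was -0.02. The ubiquitin ligase gene MARCHF4 (log2 change -0.55 ± 0.12) and EZH2, the methyltransferase of the Polycomb complex (-0.51 ± 0.14), were lower, the EZH2 call being lost without APX2009 replicate 2 or untreated replicate 1. MARCHF9, a related ligase gene, was higher by a log2 change of 0.22 at an adjusted p of 0.049 in edgeR, and it was not called by DESeq2 (adjusted p = 0.11). EED, a partner of EZH2 in that complex, was not called (log2 change -0.12).

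The class I-like and class II genes were at low levels, and 16 of 21 could be tested. Of these, 6 were lower (37.5%), 2 were higher (12.5%) and 8 were not called. The shares of all tested genes were 17.4% and 17.2%. The median log2 change of the list was -0.18. CD74, the invariant chain of class II, had 19.8, 24.5 and 25.2 CPM after APX2009, against 34.1, 34.6 and 33.8 CPM in untreated cells (log2 change -0.56 ± 0.09, edgeR adjusted p = 0.0013). The class II chains HLA-DRB1 and HLA-DPA1 were lower at under 2.2 CPM in every library (log2 changes -1.48 ± 0.27 and -1.56 ± 0.30). HLA-G, a non-classical heavy chain, had 1.54, 2.13 and 2.16 CPM after APX2009, against 2.55, 3.29 and 2.98 CPM in untreated cells (log2 change -0.61 ± 0.20, edgeR adjusted p = 0.040), and was not called without APX2009 replicate 1 (log2 change -0.46, adjusted p = 0.11). The class I-like genes HFE, which regulates iron uptake, and MR1, which presents vitamin metabolites to MAIT cells, were also lower (log2 changes -0.38 ± 0.09 and -0.32 ± 0.09).

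Some relatives of the heavy chains went the other way. The class I pseudogene HLA-K had 34.2, 32.6 and 37.3 CPM after APX2009, against 20.7, 16.7 and 19.5 CPM in untreated cells, 1.83-fold higher (log2 change 0.87 ± 0.10, edgeR adjusted p = 9.6e-05). The pseudogene HLA-L had 5.06, 2.00 and 2.92 CPM after APX2009, against 1.88, 1.29 and 1.96 CPM in untreated cells (log2 change 0.98 ± 0.33, edgeR adjusted p = 0.040). That call rests on APX2009 replicate 1, without which its log2 change was 0.53 (adjusted p = 0.15). The stress ligand genes MICA and MICB, read by natural killer cells, were not called (log2 changes 0.05 and 0.18), but MICB was called higher without APX2009 replicate 1 (0.24, adjusted p = 0.0496).

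Of the 9 members, 7 lie on chromosome 6 between HLA-F and TAPBP (chr6:29722775-33314387), a stretch examined after the members' values were seen. Without these members, 120 genes of the stretch were tested, of which 25 were lower (20.8%) and 22 were higher (18.3%), with a median log2 change of 0.00. These shares stand near the 17.4% and 17.2% of all tested genes.

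The genes whose log2 levels over the 6 libraries, set against the untreated mean, were nearest to each lower member were found among 9812 tested genes whose mean log2 CPM reached 3. By Euclidean distance in log2 units, HLA-B was nearest to OGFR (0.0474), DEAF1 and ERBB2, and HLA-C to PCDH1 (0.0241), PKM and LMNB2. HLA-E was nearest to ACTB (0.0582), TMPRSS2 and PACS2, and HLA-F to TYMP (0.0747), HERC6 and NET1. TAP1 was nearest to ALDH3B1 (0.0481), FIBCD1 and TMEM132A, TAP2 to INPP4B (0.0493), RIN2 and MTRR, and TAPBP to TMC6 (0.0391), GRB7 and BOP1. These distances describe 6 libraries that share the same groups.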

How the data were processed

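RNA of 6 OE33 cultures was sequenced after poly(A) selection. The deposited values are raw counts per Ensembl gene made by the authors; the submitters' processing notes name the build GRCh38 and the tools Trimmomatic 0.36, Subread 1.5.2, featureCounts and STAR 2.5.2b. No source used here gives the annotation release, the strand setting or the handling of reads with several hits, so reads of overlapping or antisense genes cannot be told apart. Symbols and coordinates come from GENCODE 29, which matched 57447 of 58051 identifiers (the rest held 0.0348% of gene counts).

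The 92 ERCC rows entered neither library sizes nor tests. Genes passing filterByExpr at its defaults (14773) were scaled by TMM and fitted in R 4.3.3 with treatment as the sole term; edgeR 4.0.16 gave quasi-likelihood F-tests, APX2009 over untreated, with Benjamini-Hochberg adjustment over all of them. SE was derived from the F statistic. CPM are counts scaled to the TMM-adjusted library size. This step was also tested on simulated data. Alternatives used limma 3.58.1 and DESeq2 1.42.0. Figures were drawn with matplotlib 3.10.9. Depth was 21158750 to 26111656 gene counts per library; no 2 libraries of a group agreed within sampling noise (chi-square per degree of freedom 3.06 to 30.0).

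The text names all 9 members, of each related list up to 4 tested genes with the smallest p, and for each lower member the 3 genes with the nearest profile; other genes were named after their values were seen. MARCHF4 and MARCHF9 were matched by identifier. Some genes of the related lists are not reported here and are left out of their counts. The members and lists were chosen with earlier results of these data known. Promoter letters are RefSeq's, on GRCh38.p14, and a motif search on both strands covered 250 bases before each start.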

Additional observations from a re-analysis of the deposited data

How the results depend on the processing

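The members that were lower numbered 7 under RLE, upper-quartile and total-count scaling, both other filters, DESeq2, limma voom, and without mitochondrial and the 20 most counted genes. Leaving out 1 library at a time gave 6 to 7, TAPBP being the member lost. At an adjusted p under 0.01 there were 6, and 1587 and 1470 genes of the table were lower and higher. Against a 1.5-fold change there was 1 (HLA-F), with 255 lower and 351 higher genes, and the summed heavy chains (log2 change -0.52) were not called. With ERCC totals there were 0 members, 7 lower and 129 higher genes, and the summed heavy chains, at -0.50, were not called; the log2 change of every member but NLRC5 was below 0, and the ERCC share ran from 0.315% to 0.752% within the APX2009 group. The cause of these losses was not tested. Lower genes of the table numbered 1795 to 2870 and higher ones 1708 to 2839 when a library was left out. The median of all genes moved by at most 0.06 on the log2 scale under any scaling. No called member changed sign under any alternative run, and the log2 change of NLRC5, not called, was -0.03 without APX2009 replicate 3. Of 40 named genes, 34 to 40 kept their side of the threshold under the other alternatives, against 15 with ERCC totals and 20 against a 1.5-fold change.

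The labels number the replicates but do not say whether these numbers pair the samples. Deviations of same-numbered libraries correlated at 0.14, 0.08 and 0.01, and those of differently numbered ones at -0.14 to 0.11. With 3 libraries in each group, these values cannot decide the question. With the replicate block, 7 members were lower and 2744 and 2757 genes were lower and higher, and no member's call changed; PSMB10 (adjusted p = 0.016) and NFKB2 (0.028) became called and MARCHF9 (0.054) did not stay called. The lowest count of any member in any library was 1876 (HLA-F, APX2009 replicate 3); the class II chains HLA-DRA, HLA-DRB1 and HLA-DPA1, at under 2.2 CPM in every library, are limited by depth.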
